A study of Homo sapiens with 24 samples.

Results

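Human leukaemia cells taken from the blood of mice given a CXCR4 inhibitor for 24 h were compared with the same cells from the blood of control mice. The members are the 6 arrays of a series of 24 whose titles name blood and either 24 h or control, 3 mice in each group. The cells were OCI-AML3, an established acute myeloid leukaemia line carrying luciferase and GFP, grown in NSG mice, which lack the immune cells that would reject human tissue. All groups share the line, its reporters and the host strain. The 24 h group (mice 1, 2 and 3) received LY2510924, a peptide antagonist of CXCR4, under the skin at 2.5 mg/kg daily, and was harvested on day 41. It is written LY2510294 among the characteristics. The control group (mice 4, 5 and 6) was harvested on day 42, so harvest day and treatment cannot be told apart. Blood, femoral marrow and spleen of every mouse each gave 1 array of cells positive for GFP and for human CD45. The series also holds 2 mice treated for 72 h (mice 8 and 9), harvested on day 43, whose arrays entered the estimate of the spread.

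CXCR4 is a G protein-coupled receptor on haematopoietic and leukaemia cells, and its ligand CXCL12 is made by stromal cells of the marrow. Signalling through CXCR4 holds cells in the marrow, and antagonists of it release cells into the blood. Cells in the blood at a given time may therefore have been there all along or may have left a tissue recently, and an array of sorted blood cells cannot tell these apart. In such bulk samples fewer cells of a type and less RNA per cell cannot be told apart either. Values below are normalised log2 intensities, on which 1 unit is a doubling. Differences are 24 h minus control with the standard error (SE) of limma, and a gene was called at a Benjamini-Hochberg adjusted p under 0.05 over 10351 genes. Within a group each array is a different mouse. The p-values of the blood comparison use a spread within groups that was pooled over all 24 arrays, sites and times. Arrays of the same mouse from different sites were taken as independent there. These p-values thus do not measure the spread between the mice of the blood groups alone.

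The array labelled 24 h, mouse 3, stood apart from the other arrays of its group. Across the 17116 probes kept by the detection filter it correlated by 0.964 to 0.974 with the control blood arrays and by 0.934 and 0.895 with 24 h arrays 1 and 2. Array 1 correlated by 0.947 to 0.968 and array 2 by 0.918 to 0.940 with the control arrays. Arrays 1 and 2 correlated with each other by 0.969, and the control arrays by 0.980 to 0.986. The median gene had an SD of 0.428 within 24 h blood and of 0.213 within control blood. Array 3 had 14394 probes detected, against 13890 and 13066 on arrays 1 and 2 and 14316 to 15267 on the control arrays. The gene GLDN, which encodes gliomedin, was detected on all 3 arrays of mouse 3, at 8.52 in blood, 7.66 in marrow and 8.84 in spleen, and on no other array, where it reached at most 4.98. For this gene the blood array of mouse 3 was like that mouse's other arrays, but GLDN is also among the genes highest on array 3. Genes detected on the 3 arrays of 1 mouse alone numbered 3 for mouse 3, 3 for mouse 9, 2 for mouse 8 and 1 each for mice 1 and 4. GPC1-AS1 and SH3BP2, also of mouse 3, were dimmer, at 6.91 and 6.04 in blood against at most 5.87 and 5.65 elsewhere. Whether the array is labelled rightly was not tested. Counts of called genes are given with and without array 3. Some single genes, ARIH2OS, NFIX and POU2F3 among them, are given in 1 of these ways. The sizes of the named differences between sites are given with all arrays only. Since array 3 was singled out for its values, counts without it describe arrays 1 and 2 and are no independent test of the treatment.

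**Figure D1:**
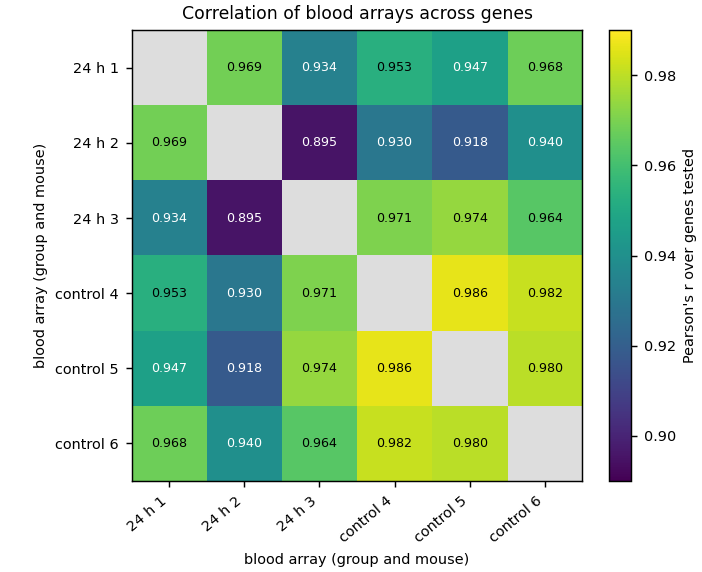
Pearson's r across the 17116 probes kept by the detection filter, for each pair of the 6 blood arrays, labelled by group and mouse. The title and scale of the plot say genes, but the values are over probes. The 24 h array of mouse 3 correlates by 0.964 to 0.974 with the control arrays and by 0.895 and 0.934 with the other 24 h arrays.

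PTPRC, which encodes the CD45 the cells were sorted on, was detected on 3 of 3 control and 2 of 3 treated blood arrays, at 6.23 to 7.59. Of 10 leukaemia markers on the array, 6 were detected in blood (PTPRC, ANPEP, ITGAM, LYZ, MEIS1 and FLT3), while CD4, MPO, KIT and NPM1 were not detected on any blood array. The brightest NPM1 probe read 4.51 to 4.82 on the 6 arrays. A probe not above background does not show that the RNA of its gene was absent, and whether this probe reads NPM1 was not tested. Of 6 B cell markers CD79B was detected, on 2 of 6 blood arrays, and of 8 platelet markers GP1BA, on 6. Of 11 markers of endothelium and stroma PECAM1 was detected, on 6, while VWF, CDH5, COL1A1 and COL1A2 were not. Of 8 neutrophil markers CSF3R and FCGR3B were detected on 6, and their list's summed level was 9.04 to 10.7 in 24 h blood, lowest on array 3, and 9.67 to 10.8 in control blood. CSF3R read 10.36, 10.23 and 8.02 against 9.51, 9.10 and 10.51. The T cell genes CD3D, CD3E and CD3G were not detected on any blood array. The summed level of 9 tissue macrophage markers, 6 of them detected, was 9.77 to 10.5 in 24 h blood and 9.60 to 9.68 in control blood. The summed level of 13 T and NK markers, of which NKG7, GZMA and GZMB were detected, was 10.3 to 11.1 against 10.2 to 10.4. That of 13 erythroid markers, of which HBA2 and TFRC were detected, was 12.02 to 14.41 against 11.85 to 13.29. On 24 h arrays 1, 2 and 3 GZMA read 5.09, 8.38 and 5.43 and HBA2 11.49, 14.26 and 10.20. CD79B (7.06) and GP1BA (8.40) were also highest on array 2. Other markers were not, since GZMB (8.27) and PECAM1 (11.14) were highest on array 3 and C1QB (8.18) on array 1. The part of these markers in the results below was not tested.

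With all 6 arrays, 4 of 10351 genes were called, a share of 0.0386%, and 1510 had an unadjusted p under 0.05 (14.6%). The transcription factor gene DDIT3 and the antisense gene ARIH2OS were higher at 24 h, and the transcription factor genes NFIX and POU2F3 were lower, each pair a share of 0.0193%. All 4 had 24 h and control arrays that did not overlap, as had 1412 genes in all (13.6%), and all 4 were also called without array 3.

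DDIT3 encodes CHOP, a transcription factor that cells make under stress of the endoplasmic reticulum or lack of amino acids. It read 10.03, 10.28 and 8.95 on the 24 h arrays of mice 1, 2 and 3, and 7.68, 7.86 and 7.65 on the control arrays of mice 4, 5 and 6. Mouse 3 lay between the other treated mice and the controls. DDIT3 rose by 2.02 (SE 0.30, adjusted p = 0.00951 in limma), a 4.07-fold difference, and by 2.43 without array 3 (adjusted p = 1.11e-04).

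ARIH2OS is transcribed from the strand opposite to ARIH2. Its levels were 8.16, 8.14 and 6.85 at 24 h and 6.21, 5.84 and 6.12 in control mice, again with mouse 3 between the others and the controls, and it was detected on 2 of 3 control arrays. The difference was 1.66 (SE 0.28, adjusted p = 0.0275 in limma). Signal of its partner ARIH2 cannot be told apart from it here.

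POU2F3 encodes a POU-domain factor best known from tuft cells, and NFIX a nuclear factor I protein with roles in blood stem cells. POU2F3 stood at 5.07, 4.66 and 5.15 in treated mice and at 6.33, 6.29 and 6.07 in control mice. NFIX stood at 5.61, 5.09 and 5.43 and at 6.48, 6.68 and 6.38. For both genes array 3 lay with arrays 1 and 2, well below the controls. Both genes were detected on 3 of 3 control arrays and 0 of 3 treated arrays, so only bounds on their falls can be given. POU2F3 was at least 1.13-fold lower (measured means 4.96 and 6.23, adjusted p = 0.00358 in limma) and NFIX at least 1.37-fold lower (5.38 and 6.51, adjusted p = 0.0275). POU2F3 was detected on no marrow or spleen array. Among 24 h and control arrays it therefore passed the filter on dim probes only through control blood, the group where it was high. The spread behind its p-value came in part from arrays not above background, so that p-value is no independent support for a fall.

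**Figure D2:**
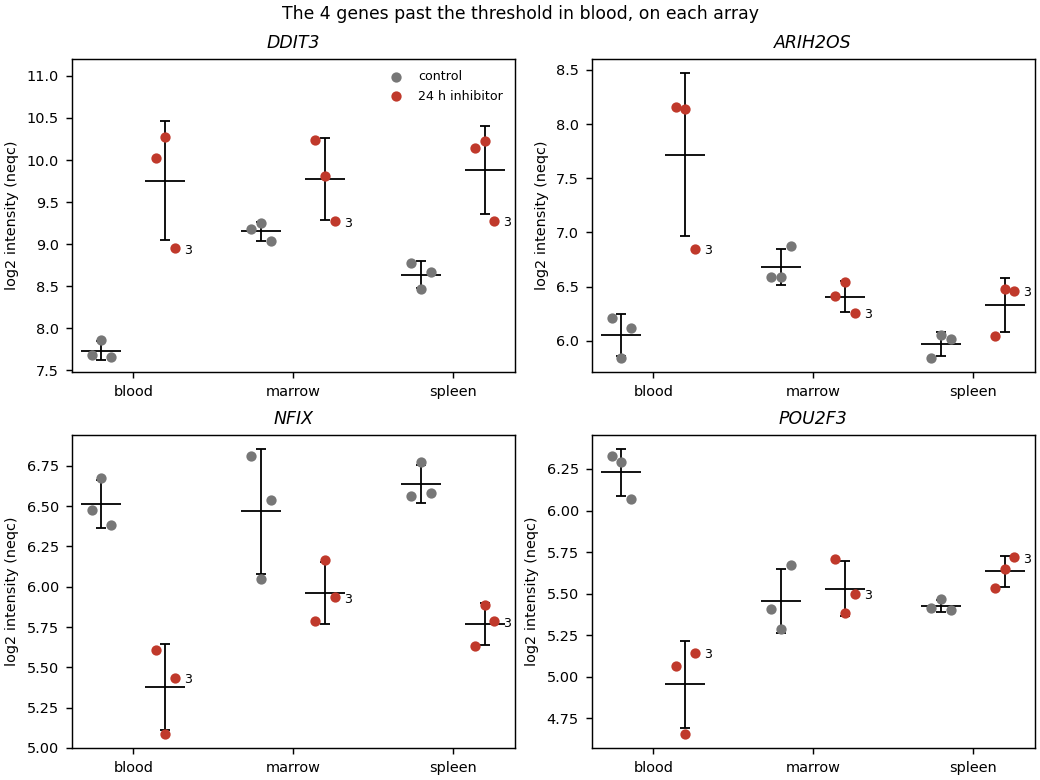
Normalised log2 intensity of DDIT3, ARIH2OS, NFIX and POU2F3 on each control (grey) and 24 h (red) array of blood, marrow and spleen; bars give the mean ± SD of 3 mice and the array of mouse 3 is numbered. In blood the groups do not overlap for any of the 4 genes, and the DDIT3 level of mouse 3, 8.95, lies below 10.03 and 10.28.

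These 4 calls rest on a spread shared by all 24 arrays. A fit to the 6 blood arrays alone called 0 genes, with limma's adjusted p at 0.622 to 0.624 for the 4 and 782 genes at an unadjusted p under 0.05. Leaving out control array 4 also ended all 4 calls, and leaving out 24 h array 1, 24 h array 2 or control array 6 left POU2F3 alone of the 4, and leaving out control array 5 left DDIT3 and POU2F3. With the BeadChip as a block POU2F3 was the 1 gene called (adjusted p = 0.0453 in limma), and within BeadChip 1, which holds the 3 treated mice and control mouse 4, 0 genes were called and 502 had an unadjusted p under 0.05. NFIX missed the threshold with mouse as a random replicate block (adjusted p = 0.0518 in limma).

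CXCR4, the target of the drug, was read by its brighter probe at 10.07, 9.65 and 10.71 on 24 h arrays and at 10.98, 10.62 and 10.86 on control arrays. Mouse 3 lay among the controls and mice 1 and 2 below them. The difference of -0.68 (SE 0.33) was not past the threshold (adjusted p = 0.347 in limma), nor was -0.96 without array 3 (adjusted p = 0.0597). A dimmer CXCR4 probe, detected on all 6 arrays, differed by 0.04, so the 2 probes disagree. ACKR3, the other receptor of CXCL12, differed by 0.25 (adjusted p = 0.783 in limma). CXCL12 has 3 probes on the array, and none was detected on any of the 24 arrays. Of 25 tested genes for CXCL12 receptors and their signalling, 0 were called with all arrays. Without array 3, 1 was higher and 2 were lower, near the shares over all genes given next. The higher gene was VAV1 (0.80), an exchange factor for Rac. The lower genes were GNAI3 (-0.99), a G protein subunit, and ITCH (-1.19), the ligase that sends CXCR4 to degradation. RGS1, which shortens G protein signals, read 9.25, 9.98 and 9.71 against 9.08, 8.01 and 8.28 without passing the test (adjusted p = 0.237 with all arrays, limma).

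Without array 3 the count of called genes was 1586, or 15.3% of the genes tested, with 637 higher (6.15%) and 949 lower (9.17%). Array 3 alone against the 3 controls gave 0 calls and 1219 genes at an unadjusted p under 0.05 (11.8%). Of the 1586 genes, 373 (23.52%) had groups of 3 that did not overlap once array 3 was put back. Among the 5539 genes (53.5%) whose arrays did not overlap without array 3 that share was 25.49%, so the called genes kept apart about as often as the others. The count also leaned on single arrays. New fits called 475 genes without control array 4, 362 without control array 5 and 1518 without control array 6. Of these 470, 361 and 1253 were among the 1586. Leaving out 24 h array 1 or 2 as well leaves a single treated array, so those fits are not compared here. With the BeadChip as a block 864 were called, and 2 within BeadChip 1.

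Heat shock genes were the list with the largest share of higher calls without array 3 among the lists drawn in the plot of list shares. These genes encode chaperones, which refold damaged proteins and are switched on together by heat shock factor 1. Of 19 tested members 9 were higher (47.4%, against 6.15% of all genes) and 0 lower without array 3. With all arrays 0 passed, though 18 of 19 differences were above 0 and 7 had treated arrays wholly above the controls (36.8%, against 6.96% of all genes). The median difference was 0.49 with all arrays and 0.64 without array 3, against -0.04 and -0.03 over all genes.

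HSPA6, a chaperone that is nearly silent until stress, read 13.15, 13.31 and 9.03 on the 24 h arrays and 9.05, 9.44 and 9.86 on control arrays. Mouse 3 sat below every control. The difference was 3.78 without array 3 (adjusted p = 5.45e-04 in limma) and 2.38 with it (adjusted p = 0.233), and a second HSPA6 probe differed by 1.54 and 1.29. HSPA6 and its pseudogene HSPA7, which read 10.88, 11.04 and 6.67 against 7.55, 6.85 and 8.17, are near-identical copies that share signal.

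BAG3, a co-chaperone that feeds damaged proteins to autophagy, read 11.60, 11.62 and 9.62 against 8.81, 9.23 and 8.76. Here all treated mice lay above all controls. The difference of 2.01 (SE 0.39) missed the threshold with all arrays (adjusted p = 0.0631 in limma) and was 2.68 without array 3 (adjusted p = 5.77e-05). The co-chaperone DNAJB1 read 10.37, 10.34 and 9.24 against 8.17, 9.24 and 8.41 (1.75 without array 3, adjusted p = 0.00335 in limma). HSPA1A, the main inducible HSP70 gene, read 12.86, 13.03 and 12.13 against 10.69, 11.62 and 11.53, with no overlap (1.67 without array 3, adjusted p = 0.00981 in limma, and 1.39 with it, adjusted p = 0.118). Its copy HSPA1B is near-identical and cannot be fully separated from it.

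The bases before the transcription starts of these 4 genes and of DDIT3 are shown because heat shock factor 1 is known to bind repeats of GAA and TTC. They come from RefSeq on GRCh38.p14, 250 bases each, with every GAA followed, after any 2 bases, by TTC in capitals. This motif of 8 letters reads the same on both strands.
HSPA6 (chr1:161524290-161524539, plus strand): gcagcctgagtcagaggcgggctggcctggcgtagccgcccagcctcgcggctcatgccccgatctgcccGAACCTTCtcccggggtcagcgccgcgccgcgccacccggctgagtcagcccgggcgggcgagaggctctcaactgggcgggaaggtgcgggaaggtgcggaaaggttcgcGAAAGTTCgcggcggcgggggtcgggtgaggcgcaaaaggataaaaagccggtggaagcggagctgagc
HSPA1A (chr6:31815293-31815542, plus strand): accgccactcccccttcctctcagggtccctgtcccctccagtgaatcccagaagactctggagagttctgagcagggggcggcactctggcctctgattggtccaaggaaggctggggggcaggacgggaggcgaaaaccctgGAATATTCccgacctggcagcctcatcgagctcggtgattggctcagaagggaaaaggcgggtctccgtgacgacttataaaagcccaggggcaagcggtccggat
DNAJB1 (chr19:14518398-14518647, minus strand): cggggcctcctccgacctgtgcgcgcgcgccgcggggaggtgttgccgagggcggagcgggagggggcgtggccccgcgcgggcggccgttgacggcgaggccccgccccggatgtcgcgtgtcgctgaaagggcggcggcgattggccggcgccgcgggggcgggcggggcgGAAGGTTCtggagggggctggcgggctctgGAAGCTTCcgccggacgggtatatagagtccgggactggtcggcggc
BAG3 (chr10:119651130-119651379, plus strand): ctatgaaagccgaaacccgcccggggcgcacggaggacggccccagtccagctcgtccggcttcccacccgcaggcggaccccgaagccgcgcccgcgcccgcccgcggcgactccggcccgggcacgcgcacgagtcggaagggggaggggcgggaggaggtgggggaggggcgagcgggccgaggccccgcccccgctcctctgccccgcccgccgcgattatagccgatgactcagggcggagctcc
DDIT3 (chr12:57520515-57520764, minus strand): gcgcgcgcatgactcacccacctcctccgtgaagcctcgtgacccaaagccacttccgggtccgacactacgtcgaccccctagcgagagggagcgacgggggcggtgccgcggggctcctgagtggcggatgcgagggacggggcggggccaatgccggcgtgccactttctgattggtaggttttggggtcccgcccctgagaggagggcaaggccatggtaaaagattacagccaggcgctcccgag

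This motif occurred 2 times before the HSPA6 start, 2 times before this start of DNAJB1, which has 3 listed starts, and 1 time before HSPA1A, and not in the windows of BAG3 and DDIT3. Of all 27305 genes with a window 7.05% held the motif, and of the 19 listed heat shock genes with a window 11 did (57.9%). A longer motif, which adds TTC and any 2 bases in front of the shorter one and was searched on both strands, was found before HSPA6 but not before the other 4 starts, in 0.557% of all genes and in 6 of the 19. A match in letters is a description of these windows and not a bound site.

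CHOP is made downstream of ATF4, so the other genes of that response were read beside DDIT3. Of 21 tested genes of the ATF4, CHOP and unfolded protein response, DDIT3 was the 1 called with all arrays. Without array 3 there were 2 higher and 2 lower, both 9.52% and near the shares over all genes. SESN2, a stress-induced inhibitor of mTORC1, read 6.42, 7.17 and 5.97 against 5.35, 5.33 and 5.71 and was called without array 3 (adjusted p = 0.00975 in limma). It was detected on 0 of 3 control arrays and was at least 1.93-fold higher on arrays 1 and 2 (measured means 6.79 and 5.46). The 2 lower genes, XBP1 (-1.11) and EDEM1 (-0.89), act in the unfolded protein response, XBP1 as its factor and EDEM1 in disposal of misfolded proteins. ATF4 itself differed by 0.09, the chaperone HSPA5 by 0.41 and TRIB3, a target of CHOP, by 0.43, none past the threshold (adjusted p of 0.81, 0.382 and 0.435, limma). Treated arrays lay wholly above control arrays for 6 of the 21 genes (28.6%, against 6.96% of all genes), HSPA5 and SESN2 among them. The list as a whole did not rise with all arrays, with a median difference of -0.02 and 10 of 21 differences above 0.

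Replication-dependent histone genes make messages that end in a stem-loop in place of a poly(A) tail and are normally made in S phase. All 13 tested members had a difference above 0 with all arrays, with a median of 0.77. None was called with all arrays, but 7 had treated arrays wholly above control arrays (53.8%, against 6.96% of all genes), and 4 were called without array 3, all higher (30.8%, against 6.15%). H2AC18 read 12.51, 12.55 and 12.26 against 11.05, 11.03 and 11.55, with mouse 3 close to mice 1 and 2 (1.23, SE 0.24, adjusted p = 0.0631 in limma, and 1.32 without array 3, adjusted p = 0.00832). H4C8 read 8.68, 8.67 and 8.10 against 6.61, 7.13 and 7.34 (adjusted p = 0.0933 with all arrays and 0.00874 without array 3, limma). Histone genes are near-identical copies, so the probe may read several of them.

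The part that small RNA levels, detection counts or the BeadChip had in the calls without array 3 was not tested. Small nuclear and nucleolar RNA genes, whose products splice messages and modify ribosomal RNA, were high on arrays 1 and 2 and not on array 3. Of 28 tested, 11 were higher (39.3%, against 6.15% of all genes) and 1 lower without array 3, and 0 passed with all arrays. With all arrays 1 of 28 had treated arrays wholly above the controls (3.57%, against 6.96%). Their median level was 8.28 and 8.47 on arrays 1 and 2, 6.87 on array 3 and 7.02 to 7.32 on control arrays. RNU11, of the minor spliceosome, read 9.94, 9.68 and 5.51 against 6.54, 5.91 and 7.72. RNU4-2, of the major spliceosome, read 10.33, 9.50 and 6.44 against 7.45, 7.20 and 7.70. For both, array 3 lay below every control array. RN7SK, which restrains transcription elongation, read 13.19, 13.46 and 10.67 against 10.89, 10.46 and 11.13. On the 72 h blood arrays of mice 8 and 9 RNU11 read 10.99 and 8.04 and RN7SK 13.86 and 12.36, and on 24 h spleen of mouse 2 RNU11 read 8.80. So high small RNA levels were not limited to the 24 h blood arrays. RNU1 copies are near-identical and share signal.

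**Figure D3:**
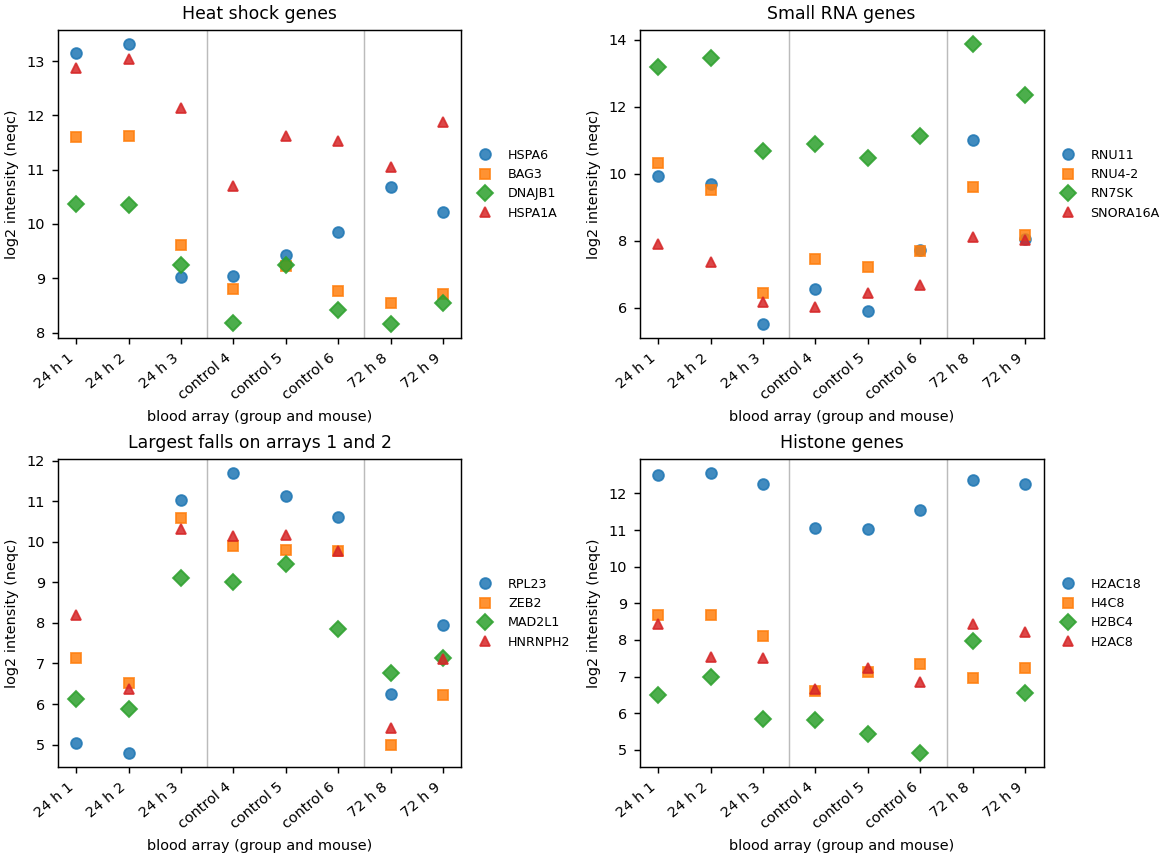
Normalised log2 intensity of 4 genes per panel on the 8 blood arrays, labelled by group and mouse; each point is 1 array. HSPA6 and BAG3 are highest on 24 h arrays 1 and 2, small RNA genes are high there and on the 72 h array of mouse 8, RPL23 is near background on arrays 1 and 2 (5.04 and 4.79), and H2AC18 is higher on all 3 treated arrays than on the controls.

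The largest falls without array 3 were of RPL23, ZEB2, MAD2L1, HNRNPH2, PRRC2C, LINC02910, WAPL and TADA1, and 0 of them passed with all arrays. RPL23, which encodes a protein of the large ribosomal subunit, read 5.04 and 4.79 on arrays 1 and 2, not detected on either, and 11.03 on array 3, against 11.69, 11.13 and 10.62 in controls. Without array 3 it was at least 32.4-fold lower (measured means 4.92 and 11.1, adjusted p = 0.00595 in limma). In 72 h blood it read 6.25 and 7.94, and in 24 h spleen of mouse 2 8.97. Of 33 genes of cytosolic ribosomal proteins tested, 0 were higher and 2 lower without array 3 (6.06%, against 9.17% of all genes), with a median of -0.03. The other was RPL22, also of the large subunit, which was lower by -1.32 without array 3 (adjusted p = 0.0133 in limma) and differed by -0.95 with it (adjusted p = 0.246).

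ZEB2, a repressor with roles in monocytic and leukaemia cells, read 7.14, 6.52 and 10.59 against 9.91, 9.80 and 9.77 (-2.999 without array 3, adjusted p = 0.00781 in limma). The splicing factor HNRNPH2 read 8.19, 6.36 and 10.31 against 10.15, 10.16 and 9.78. PRRC2C read 7.87, 7.94 and 11.10 against 10.50, 11.26 and 10.17. For ZEB2 and HNRNPH2 array 3 lay above every control, and for PRRC2C within the control range. WAPL, which releases cohesin from chromosomes, and TADA1, of a histone acetylase complex, were also lower without array 3, WAPL by -2.46. TADA1 was not detected on arrays 1 and 2 and was at least 4.06-fold lower there, and LINC02910, a non-coding RNA, at least 2.46-fold. For HNRNPH2 and TADA1 a second probe gave smaller differences, -1.30 and -1.15.

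Genes of G2 and mitosis had 7 lower and 0 higher of 33 tested without array 3 (21.2% lower, against 9.17% of all genes) and 0 called with all arrays. With all arrays 0 of the 33 had treated arrays wholly below control arrays. The median difference was -0.58 with all arrays and -0.81 without array 3, and 2 of 33 differences were above 0 with all arrays. MAD2L1, of the spindle checkpoint, read 6.12, 5.89 and 9.11 against 9.02, 9.46 and 7.86. TTK, the kinase that starts that checkpoint, read 5.31, 4.81 and 7.39 against 8.0035, 7.52 and 6.36. In both genes array 3 lay within the control range, and control array 6 was the lowest control. TTK was not detected on arrays 1 and 2 and was at least 2.24-fold lower there. NUF2, of the kinetochore, differed by -1.65 without array 3, and KIF23, needed for the end of cytokinesis, was at least 1.93-fold lower. The list's median level was 7.68 and 7.57 on arrays 1 and 2, 8.40 on array 3, 9.07 and 8.995 on control arrays 4 and 5 and 7.86 on control array 6. With all 24 h arrays the median difference was -1.005 without control array 6 and -0.32 without control array 4, and it was -0.11 for array 3 alone. Of 32 genes of G1/S and DNA replication, 3 were lower and 0 higher without array 3 (9.38%, near 9.17% of all genes). With all arrays 4 of the 32 had treated arrays wholly below control arrays (12.5%).

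MYC, the growth factor-driven transcription factor, read 7.41, 7.03 and 8.46 against 8.82, 9.06 and 7.99, and was lower without array 3 (-1.41, adjusted p = 0.0315 in limma). It was 1 of 4 lower genes among 24 of ribosome biogenesis (16.7%, against 9.17% of all genes), with NCL (-0.93), GAR1 (-1.10) and NIP7 (-0.94), which act in the nucleolus. For MYC and NCL array 3 lay within the control range, and for GAR1 and NIP7 above it.

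Immediate early genes, which answer a signal within minutes, had 4 higher and 0 lower of 22 tested without array 3 (18.2% higher, against 6.15% of all genes) and 0 called with all arrays. IER2 read 9.06, 10.17 and 7.85 against 7.40, 7.27 and 7.33. IER3 read 12.51, 12.64 and 11.61 against 11.18, 10.96 and 11.29. ATF3, a stress-induced repressor, read 11.83, 11.72 and 11.47 against 10.66, 10.46 and 10.77, with array 3 close to the others of its group. All 3, and IER5, had treated arrays wholly above control arrays (18.2% of the list, against 6.96% of all genes), and their adjusted p with all arrays ran from 0.193 to 0.252 in limma. The list's median was 0.08, since other members had differences near or below 0, such as FOS (12.94, 12.58 and 12.97 against 13.29, 12.998 and 13.09).

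ERK feedback genes, which damp MAP kinase signals, had 3 higher and 0 lower of 15 without array 3 (20.0% higher, against 6.15% of all genes). DUSP5, a phosphatase for ERK, read 9.97, 10.30 and 10.15 against 9.35, 9.18 and 9.44, with mouse 3 between mice 1 and 2 (0.82, adjusted p = 0.0765, and 0.81, adjusted p = 0.0118, limma). IER5L read 7.95, 8.06 and 7.10 against 5.96, 6.32 and 6.70. Both had treated arrays wholly above control arrays. Of the 15 genes 3 lay wholly above (20%, against 6.96% of all genes) and 1 wholly below (6.67%).

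Cholesterol and fatty acid genes had 5 higher (21.7%, against 6.15% of all genes) and 1 lower (4.35%, against 9.17%) of 23 without array 3. FDPS, of the mevalonate pathway, read 10.67, 10.98 and 9.22 against 9.70, 9.64 and 9.57, with mouse 3 below the controls. MVK and NSDHL, enzymes of the same route, had treated arrays wholly above control arrays (7.24, 6.90 and 6.39 against 6.01, 6.15 and 6.28 for MVK). Of the 23 genes 3 lay wholly above (13%, against 6.96% of all genes) and 2 wholly below (8.7%). The lower gene, SQLE (-0.97), belongs to that route too.

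Genes of mature monocytes and granulocytes had 3 higher and 0 lower of 29 without array 3 (10.3% higher, against 6.15% of all genes). With all arrays 2 of the 29 had treated arrays wholly above control arrays (6.9%, against 6.96% of all genes) and 2 wholly below (6.9%). TREM1, an activating receptor, read 9.98, 10.56 and 9.58 against 8.85, 8.17 and 9.11, with no overlap (1.56 without array 3, adjusted p = 0.0368 in limma). S100A12, a secreted alarm protein, read 8.98, 9.06 and 6.76 against 6.19, 6.03 and 7.40. LYZ, lysozyme, lay lower on all treated arrays (13.74, 13.36 and 14.03 against 14.12, 14.34 and 14.27) without passing the test (adjusted p = 0.347 with all arrays, limma). Of 27 interferon-stimulated genes 2 were higher without array 3 (7.41%, against 6.15% of all genes), ISG15 (1.73) and IFIT2 (1.60), and IFITM3, which blocks viral entry, read 7.76, 8.05 and 7.55 against 6.90, 6.13 and 6.64 without a call (adjusted p = 0.249 with all arrays, limma).

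The remaining pathway lists kept near the shares over all genes, 6.15% higher and 9.17% lower, without array 3. With all arrays 0 of their members were called. Treated arrays then lay wholly above control arrays for 4 of 25 NF-kB targets, cytokines and chemokines (16%) and 2 of 11 MHC class II genes (18.2%), against 6.96% of all genes. They lay wholly below for 0 in both lists. The median difference was 0.26 for the NF-kB list, with 21 of 25 differences above 0. It was -0.14 for MHC class II, with 4 of 11 above 0. Counts without array 3 follow. Oxidative phosphorylation had 0 higher and 2 lower of 28 (0% and 7.14%). Glycolysis and hypoxia had 1 and 1 of 30 (3.33% each), and actin and cytoskeleton 0 and 1 of 28 (0% and 3.57%). NF-kB targets, cytokines and chemokines had 1 and 1 of 25 (4% each), and adhesion genes 2 and 1 of 20 (10% and 5%). BCL2 family and p53 targets had 2 and 2 of 23 (8.7% each), and primitive myeloid and HOX genes 1 and 2 of 18 (5.56% and 11.1%). MHC class I genes had 1 and 1 of 14 (7.14% each) and MHC class II genes 0 and 0 of 11. A list of 12 genes chosen on these samples for being high in control blood and low in marrow had a median of 0.08 in blood and 2.36 in marrow, and 10 genes chosen for being high in marrow had -0.23 and -0.75. Since their choice used these arrays, neither is independent evidence of its direction.

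**Figure D4:**
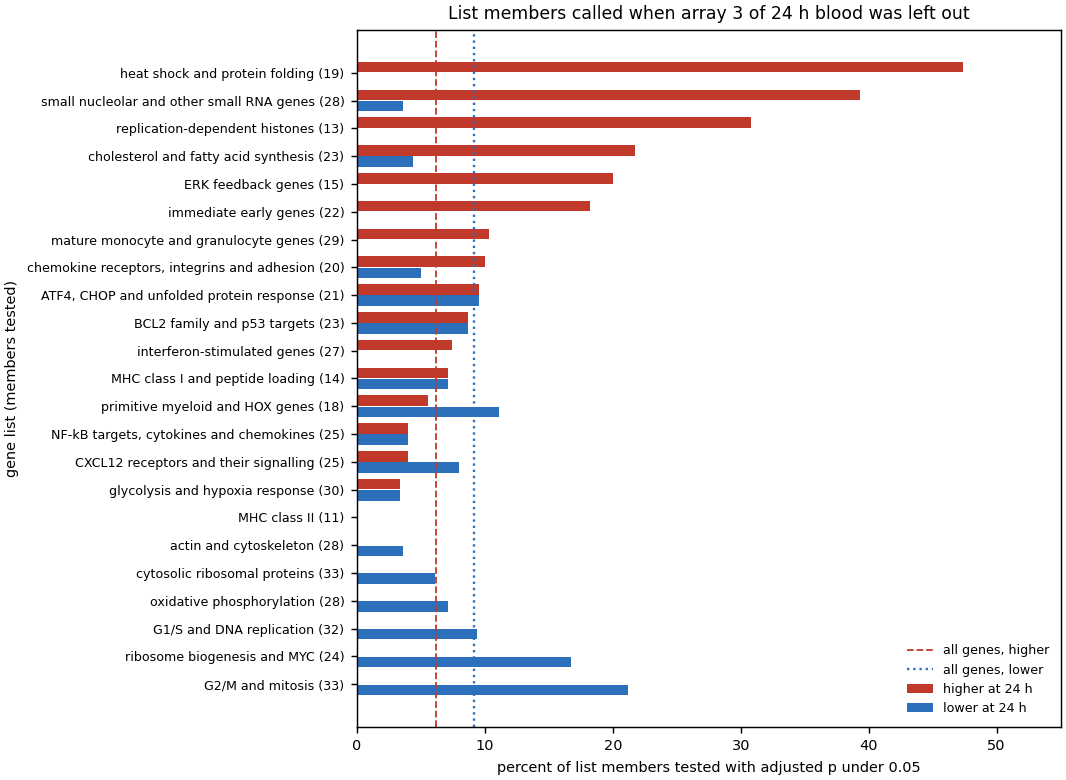
Share of tested members of each list with an adjusted p under 0.05, higher (red) or lower (blue) at 24 h, when array 3 was left out; lines give the shares over all genes, 6.15% and 9.17%, and the number in brackets is the members tested. Heat shock (47.4%), small RNA (39.3%) and histone genes (30.8%) have the largest shares of higher calls, and with all arrays DDIT3 is the 1 member of any list that was called.

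Array 3 differed from the mean of arrays 1 and 2 by more than 1 in 2655 genes, listed here as a description. Beside RPL23, GLDN and ZEB2, it was highest in PELI1, a ubiquitin ligase of Toll-like receptor signalling (9.62 against 6.89 and 5.64), and in SSTR1, a somatostatin receptor (8.51 against 5.20 and 5.26). It was lowest in RNU11, HSPA7, HSPA6, RNVU1-7 and RNU1-3, the last 2 at 9.19 and 9.23 against 12.84 to 13.18 on arrays 1 and 2. Other genes among the largest rises without array 3 were RIMBP3 (3.54), ZFHX3, RAP1GDS1 (2.96), RNU4ATAC and TSPYL2. ZFHX3, RNU4ATAC and TSPYL2 were detected on 0 of 3 control arrays and were at least 4.80-fold, 4.18-fold and 4.48-fold higher on arrays 1 and 2. For RAP1GDS1 the other 3 probes ranged from -0.13 to 0.39 without array 3, so its probes disagree.

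The difference at 24 h was then compared between blood and the other sites of the same mice, with the mouse as a fixed block. Against marrow 22 genes differed (0.213% of 10351), 1 with a larger difference in blood (0.00966%) and 21 with a smaller one (0.203%). Larger and smaller go by the signed value here and below, so a smaller difference can be a lesser rise or a greater fall in blood. For 24 h against control within a site, 22 genes were called in marrow (0.213%) and 1295 in spleen (12.5%). The 1 was DDIT3, which differed by 2.02 in blood and by 0.62 in marrow (adjusted p = 0.0339 in limma for the difference of 1.40). In spleen DDIT3 rose by 1.24, which was not separated from blood (adjusted p = 0.118). On control arrays DDIT3 was 9.03 to 9.25 in marrow, 8.46 to 8.78 in spleen and 7.65 to 7.86 in blood, so blood was lowest without treatment. Treated arrays ran from 9.27 to 10.24 in marrow, from 9.27 to 10.22 in spleen and from 8.95 to 10.28 in blood.

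The genes with a smaller difference in blood than in marrow were led by EMP1, H19, CD9, CRIP2 and GNLY. EMP1, a membrane protein, read 10.37, 9.79 and 13.07 in treated blood and 12.01, 11.59 and 11.59 in control blood. In marrow EMP1 read 10.31, 10.41 and 11.01 in treated mice and 6.32, 6.19 and 6.21 in controls. It thus rose by 4.34 in marrow and differed by -0.65 in blood, an interaction of -4.99 (SE 0.53, adjusted p = 7.12e-04 in limma). GNLY, the cytolytic peptide granulysin, read 12.30, 12.19 and 13.16 against 11.9998, 11.49 and 12.01 in blood and rose by 4.10 in marrow. The imprinted RNA H19 differed by 0.10 in blood. In marrow it was detected on 0 of 3 control arrays and was at least 13.9-fold higher at 24 h (measured means 9.70 and 5.74, adjusted p = 1.66e-04 in limma). CRIP2, a LIM-domain protein, differed by -0.23 in blood and rose by 3.29 in marrow. The tetraspanin CD9 differed by -0.05 in blood, and in marrow, where it was detected on 0 of 3 control arrays, it was at least 7.35-fold higher at 24 h (measured means 8.78 and 5.15, adjusted p = 0.00692 in limma). For all 5, every control blood array lay above every control marrow array. A second CD9 probe differed by 0.50 in blood. The site differences of H19 and CD9 rest on control marrow levels not above background and are measured values, not sizes of a fold.

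POU2F3 was past the threshold against marrow and spleen too (adjusted p = 0.0339 and 0.0246 in limma). It was detected on no control or treated array of marrow or spleen, so a fall there could not have been measured and this comparison says nothing of a difference between sites.

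Against spleen 131 genes differed (1.27%), 48 with a larger (0.464%) and 83 with a smaller (0.802%) difference in blood. SLC27A5, a bile acid and fatty acid ligase, read 7.67, 8.2 and 6.87 against 7.03, 6.67 and 6.53 in blood, while it fell by 1.28 in spleen (2.11 for the difference between sites, adjusted p = 0.0246 in limma). MOSPD3, CHCHD10, C19orf48P and SNORD57 differed between sites by 1.68 to 1.94 in the same direction. For C19orf48P a second probe differed by -0.79 in blood, against 0.31 for the one used. SPINT2, a protease inhibitor, differed by -0.09 in blood and rose by 2.39 in spleen. RGCC, a regulator of the cell cycle, and IGFBP3, which binds insulin-like growth factors, had interactions of -2.42 and -2.32, and EMP1 reached -2.95. TMEM74B was detected on 0 of 3 control spleen arrays and was at least 2.12-fold higher at 24 h in spleen (measured means 6.95 and 5.06, adjusted p = 0.00301 in limma), against -0.54 in blood.

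**Figure D5:**
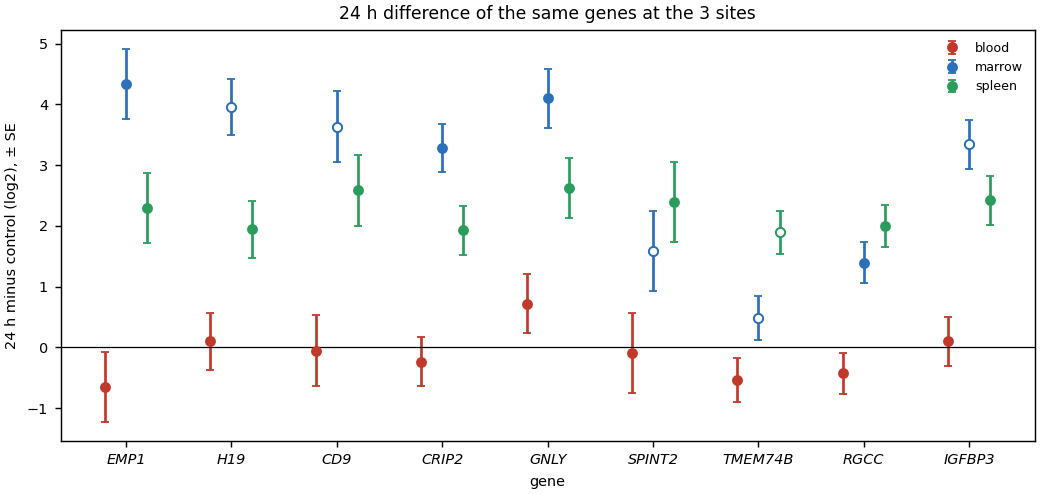
Difference of 24 h minus control on the log2 scale, ± SE of limma, in blood (red), marrow (blue) and spleen (green) for the genes with the largest smaller differences in blood than elsewhere. Open points are differences where the control or the 24 h group was not detected on any array of that site, measured values that give no fold. Blood values lie between -0.65 and 0.72, while EMP1, CRIP2 and GNLY rose by 4.34, 3.29 and 4.10 in marrow.

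These site counts depended on the block and on single arrays. Without the replicate block 7 genes differed from marrow and 0 from spleen, with 1432 at an unadjusted p under 0.05. Leaving out array 3 gave 1331 (12.9%) and 1500 (14.5%) genes, and leaving out any other blood array gave 3 to 7 genes against marrow and 0 to 6 against spleen. EMP1 passed against marrow in each of these fits.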

How the data were processed

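Gene expression was measured on Illumina expression BeadChips in 24 samples of sorted OCI-AML3 cells from 8 mice and 3 sites. The authors deposited a table of non-normalized probe intensity with a detection p-value per probe and array, made with GenomeStudio per the submitters' processing notes, and a series matrix of intensity values that equal the same signals up to a constant per array. Aligners and builds do not apply to arrays.

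Intensities were background-corrected and quantile normalised on the log2 scale with limma 3.58.1 (neqc, offset 16) in R 4.3.3. Probes with a detection p under 0.01 on at least 3 arrays were kept, 17116 of 47231, of which 13275 had 1 gene symbol. The kept probe of highest mean stood for its gene (10351 genes). Linear models over all 24 arrays in 9 groups gave the blood comparison, and models with the mouse as a fixed block compared sites. Arrays of the same mouse deviated together (mean correlation 0.284, lowest 0.0149 over 24 pairs), the pairing coming from the mouse numbers in the titles. BeadChip 1 held all 24 h mice and control mouse 4, and BeadChip 2 the others. The number of arrays limits the precision. The procedure was tested on simulated data.

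The genes described by name were CXCR4, CXCL12 and ACKR3, the 12 largest changes in each direction past the threshold with groups that do not overlap, the 8 largest in each direction without array 3, the 5 genes highest and lowest on array 3, the 5 largest in each direction between sites, and up to 4 members of each list with the smallest p. The members and lists were chosen with earlier results of these data known. Other genes named, and second probes, were picked after their values were seen.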

Additional observations from a re-analysis of the deposited data

Results flagged for a closer look

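The results below were picked out because the 24 h difference in blood differed from that in another site of the same mice, by limma's test of the difference itself with the mouse as a block. Larger and smaller go by the signed value, so a smaller difference can be a greater fall in blood. Against marrow the difference in blood was larger by 1.40 for DDIT3. It was smaller for EMP1 (-4.99), H19 (-3.85), CD9 (-3.68), CRIP2 (-3.52), GNLY (-3.38) and POU2F3 (-1.35). Against spleen it was larger for SLC27A5 (2.11), SNORD57 (1.94), MOSPD3 (1.75), CHCHD10 (1.69) and C19orf48P (1.68). It was smaller for EMP1 (-2.95), SPINT2 (-2.48), TMEM74B (-2.44), RGCC (-2.42), IGFBP3 (-2.32) and POU2F3 (-1.48). In control mice the probes of H19 and CD9 stayed at background in marrow, and that of TMEM74B in spleen, so their values are measured differences against levels not above background. POU2F3 was detected on no marrow or spleen array, so its fall could not have been seen there and its values show no difference between sites. Blood array 3 of the 24 h group and the day of harvest enter all of these, and their part was not tested.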

How the results depend on the processing

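The 4 calls with all arrays became 9 with quantile-normalised raw signal, 2 with the series matrix values (both lower, with all genes shifted by -0.44), 8 without the filter on dim probes, 7 with probes detected on all 24 arrays, 1 with the BeadChip as a block, and 0 within BeadChip 1 (502 genes at an unadjusted p under 0.05), with the 6 blood arrays alone (782, or 789 when normalised alone) and with array 3 alone (1219). Leaving out 1 blood array gave 0 to 1586 calls. With mouse as a random replicate block there were 6. Array weights gave opposite answers. The planned REML estimate stopped before it converged, weighting 24 h blood arrays 1, 2 and 3 by 0.00454, 0.535 and 0.205, and gave 0 calls (1254 at an unadjusted p under 0.05). The gene-by-gene estimate, added after seeing that, weighted them by 2.30, 0.396 and 0.163 and gave 3277 calls, CXCR4 among them (adjusted p = 0.00662 in limma). Neither is used for a result.

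The 22 genes that differed from marrow became 13, 1, 3 and 11 under the same first 4 settings, 3505 and 1844 with the 2 weightings, 0 within BeadChip 1 (352) and 7 with no replicate block, and 3 to 1331 leaving out 1 blood array. The 131 that differed from spleen became 3 with the series matrix values, 1795 and 1552 with the weightings, 221 without 72 h blood array 8, 0 within BeadChip 1 (439) and 0 with no replicate block (1432), and 0 to 1500 leaving out 1 blood array. Without array 3 the 1586 calls became 864 with the BeadChip as a block and 2 within BeadChip 1, and 33 to 1518 leaving out a further array. With the series matrix values 3.19% of those calls were higher, against 40.2%, with all genes shifted by -0.61. These settings without array 3 were chosen after seeing the data. A BeadChip block was not run for the site comparisons, since the mouse block absorbs it. The cause of each move was not tested. Over single genes in blood 2557 values under an alternative kept direction and side of the threshold, 199 newly passed, 43 no longer did and 134 changed sign with no call on either side. PELI1 (-0.81 with all arrays, 0.07 without array 2) and NFKBIZ (-0.53 with all arrays, 0.30 with the mean of its probes) were among the last. Without array 3 both were called lower, at -1.93 and -0.90. Between sites 142 kept theirs and 124 no longer passed. DDIT3, ARIH2OS, NFIX and POU2F3 kept their sign in every alternative run. Leaving aside array 3 alone, POU2F3 passed in 14 of 19 alternatives, DDIT3 in 10 of 20, ARIH2OS in 8 of 19 and NFIX in 6 of 19. Probes not above background in a group limit NFIX and POU2F3 to bounds. Among 24 h and control arrays POU2F3 passed the main filter on dim probes only through control blood, so its count of passes is no independent support.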
